A study of Homo sapiens with 4 samples.

Results

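Genes that act as negative feedback on the MAP kinase (MAPK) pathways were examined in RNA-seq of cells labelled as HepG2, a line established from a human liver tumour. The members were 10 genes picked by name from the 59050 gene symbols of the count tables: DUSP1, DUSP4, DUSP5, DUSP6, DUSP10, SPRY2, SPRY4, SPRED1, SPRED2 and ETV5. There were 4 libraries, of which 2 came from untreated cells at 0 h. The other 2 came from cells given doxorubicin, a drug that damages DNA, at 1 µg/ml over 24 h in order to induce p53. Drug and time thus differ together between the groups, and their effects cannot be told apart here. The design text and treatment protocol give this treatment, whereas the treatment field of the treated samples reads p53-miRNA. The design text calls the replicates of each group biological, and no label names separate cultures, so the p-values measure the spread between these libraries alone.

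MAPK cascades carry signals from growth factor receptors and from stress to the nucleus. The ERK branch runs from RAS through RAF and MEK to ERK, while the JNK and p38 branches respond mostly to stress. Active MAPKs induce genes whose products shut the signal down again. The DUSP proteins of this group are phosphatases that remove the activating phosphates from MAPKs, the Sprouty (SPRY) and Spred (SPRED) proteins restrain the pathway above ERK, and ETV5 is an ETS transcription factor whose own transcription follows ERK activity. DUSP1, DUSP4 and DUSP5 have also been described as target genes of p53.

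The libraries held between 27572740 and 36272180 counts. Untreated replicate 2 stood apart when levels were taken as a share of all counts of the library. Its level was the highest or the lowest of the 4 in 81.6% of the 17479 genes that passed the filter on low counts. The same held in 9 of the 10 members (highest in 3, lowest in 6, against 36.6% and 45% of all genes). Among the 17325 of those genes with a count in every library, the median gap between the untreated replicates was 0.89 on the log2 scale, against 0.25 between the doxorubicin replicates. The label HepG2 was not borne out by the markers of hepatocytes. The summed level of 17 such genes was between 1.35 and 20.1 CPM (counts per 1000000 counts of the library), lowest in untreated replicate 1 and highest in doxorubicin replicate 2, and ALB, the gene of serum albumin, had at most 3 counts in any library. FGG, a fibrinogen chain, made up most of it in treated cells, with 6 and 3 counts in untreated and 335 and 386 counts in doxorubicin-treated cells. Between 1 and 9 of the 17 genes were at 0 in a library. The 5 markers of simple epithelium summed to 5899 and 4752 CPM in untreated and 3527 and 3025 CPM in doxorubicin-treated cells, nearly all of it KRT8 and KRT18, while EPCAM, CDH1 and KRT19 had at most 21 counts in any library. The 7 markers of mesenchyme summed to 977 and 887 CPM in untreated and 1294 and 1117 CPM in treated cells. VIM made up most of it, with 752 and 718 CPM in untreated and 1011 and 833 CPM in treated cells. DCN went from 17 and 18 counts to 264 and 189, and LUM was also higher in both treated libraries. COL3A1 went the other way, from 70.0 and 69.1 to 55.8 and 46.0 CPM. COL1A1 and PDGFRB overlapped between the groups, and COL1A2 had at most 2 counts. The 8 markers of squamous epithelium summed to between 1186 and 1952 CPM, nearly all of it KRT17 and SFN. KRT5, KRT6A, TP63 and DSG3 had at most 13 counts. KRT17 was higher in both treated libraries, from 929 and 1223 to 1587 and 1322 CPM. KRT14 and KRT15 were also higher in both, at levels of at most 7.43 CPM. SFN went the other way, from 252 and 723 to 173 and 153 CPM. The sums did not overlap between the groups in any list except squamous epithelium. Hepatocyte sums were 1.35 and 5.96 CPM in untreated and 17.2 and 20.1 CPM in treated cells. Leukocyte and blood sums were 1.68 and 19.2 CPM in untreated and 1.05 and 1.31 CPM in treated cells. Of all genes tested, 30.3% had both doxorubicin libraries above both untreated ones and 11.5% had both below. Within simple epithelium KRT8 did not overlap between the groups, whereas KRT18 did. The list of leukocytes and blood summed to at most 19.2 CPM, in untreated replicate 2, where CD14 had 482 counts against at most 41 elsewhere. The part of these markers in the results on the 10 genes was not tested, and in bulk RNA a lower share of cells of a type and less RNA per cell cannot be told apart.

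All 10 members were expressed in every library and passed the filter. Per kilobase of exon, DUSP1 had the highest level of the group, with a mean of 220.9 CPM per kb over the 4 libraries and a range from 93.4 to 307. DUSP5, DUSP4 and ETV5 followed with means of 27.6, 22.8 and 20.1 CPM per kb, and their ranges overlapped. SPRED2, SPRY4, DUSP6, DUSP10 and SPRY2 lay close to each other at means between 5.41 and 7.04 CPM per kb. SPRED1 had the lowest mean, 2.30 CPM per kb. The 10 genes together summed to 726 and 609 CPM in untreated replicates 1 and 2 and to 1077 and 1194 CPM in doxorubicin replicates 1 and 2. DUSP1 alone made up 52.3% and 30.9% of that sum in untreated cells and 55.1% and 51.7% in doxorubicin-treated cells.

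**Figure D1:**
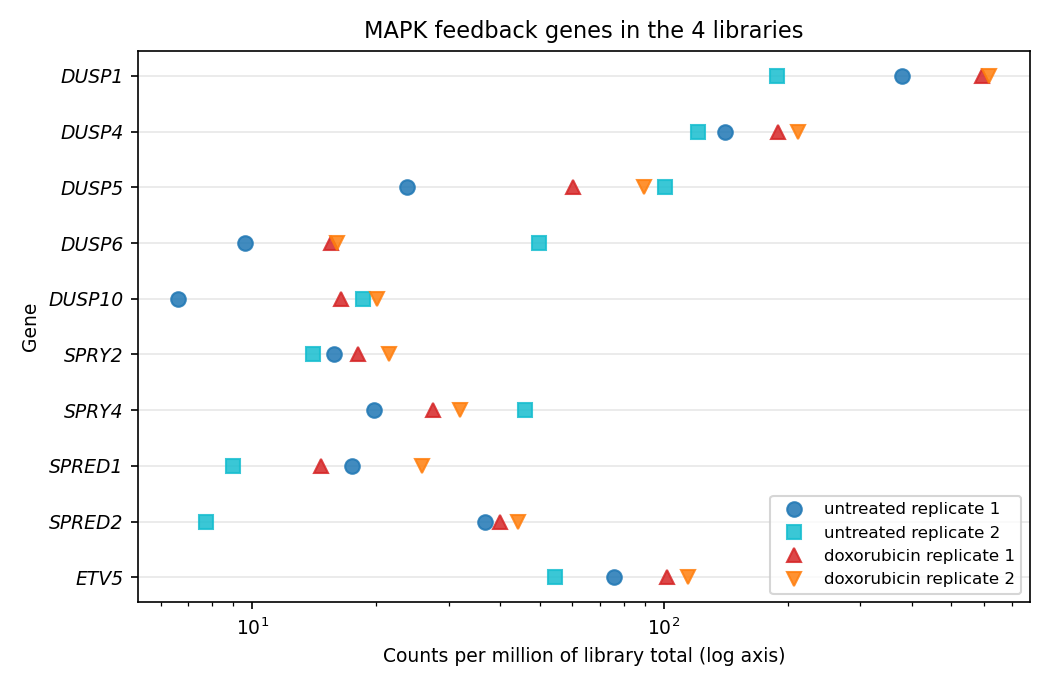
The level of each gene in CPM (horizontal, log axis) is shown for the 10 genes (vertical), with 1 symbol for each of the 4 libraries. In DUSP1, DUSP4, SPRY2, SPRED2 and ETV5 both doxorubicin libraries lie above both untreated libraries, while in DUSP5, DUSP6 and SPRY4 untreated replicate 2 is the highest library.

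The first comparison asked which of the 10 genes differed between doxorubicin-treated and untreated cells when all 4 libraries were used. Both doxorubicin libraries were above both untreated libraries in 5 members (DUSP1, DUSP4, SPRY2, SPRED2 and ETV5), and no member had both below. Over all genes tested, 30.3% had both doxorubicin libraries above and 11.5% had both below. On CPM scaled by TMM, a normalization of library sizes, the same 5 members stood above, beside 21.3% of all genes, and 17.9% of all genes stood below. Both doxorubicin libraries were above untreated replicate 1 in 9 members, all but SPRED1 (53.1% of all genes), and above untreated replicate 2 in 6 (52.5% of all genes). None of the members passed the test of edgeR (quasi-likelihood, Benjamini-Hochberg adjusted p under 0.05 over all genes, and a doubling or halving, which is 1 on the log2 scale), where 0% of all genes was called. At an unadjusted p under 0.05 the same test had 0 members and 768 genes (4.39%), and 0 members were called by DESeq2 (0.509% of all genes), by the likelihood ratio test (0.366%), by the exact test of edgeR (0.263%) or with the replicate number as a block (0.114%). The median log2 fold change of the 10 members was 0.41, against 0.01 over all genes tested, with 8 members above 0 and 2 below.

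The same comparison without untreated replicate 2 gave a different picture. DUSP5 and DUSP10 passed both thresholds as higher in doxorubicin-treated cells, and all 10 log2 fold changes were above 0. Of all 18356 genes in that fit, 3.88% were called as higher and 0.556% as lower, 4.44% in all. At an unadjusted p under 0.05 there were 4 members, beside 19.1% of all genes. The median of the members was 0.40, against 0.05 over all genes. Without untreated replicate 1, DUSP1, SPRED1 and SPRED2 passed as higher and DUSP6 as lower, in a fit where 44.4% of all 19606 genes were called in either direction, 21.2% as higher and 23.2% as lower. In both of these fits 1 untreated library stands for the group and is assumed to vary like the doxorubicin libraries, so a call there compares libraries and not conditions. Without doxorubicin replicate 1 or 2, 0 members and 0% of all genes were called, with 78 and 116 genes at an unadjusted p under 0.05. No member was called in both of the fits that lacked an untreated library. The share of all genes called in both was not counted, so this is not a result about the members.

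**Figure D2:**
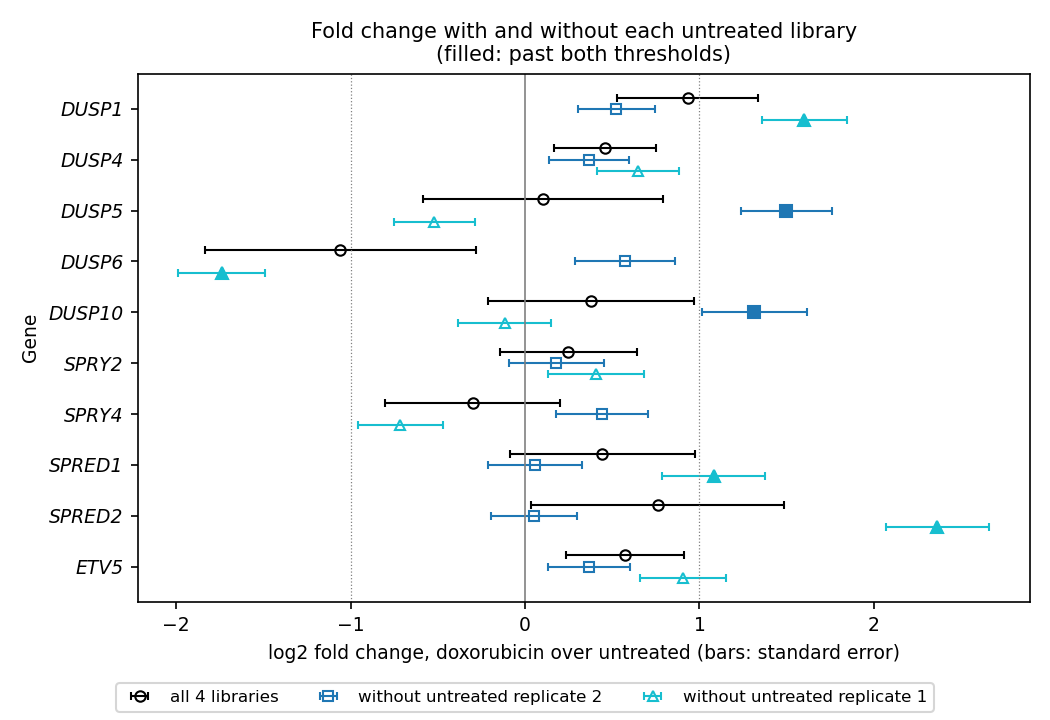
The log2 fold change of doxorubicin over untreated (horizontal, bars are standard errors) is shown for each gene (vertical) with all 4 libraries, without untreated replicate 2 and without untreated replicate 1. Filled symbols passed both thresholds, and dotted lines mark a log2 fold change of 1 in either direction. DUSP5, DUSP6, DUSP10 and SPRY4 have values on opposite sides of 0 in the fits that leave out 1 untreated library.

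The promoters of 3 phosphatase genes are shown because these genes had the highest level (DUSP1), a call without untreated replicate 2 (DUSP10) and the largest gap between the untreated replicates (DUSP6). They are the 250 bases before the first start site that RefSeq lists (GRCh38.p14), in the direction of transcription, at chr5:172771196-172771445 for DUSP1, chr1:221742090-221742339 for DUSP10 and chr12:89352502-89352751 for DUSP6, all on the minus strand. Capitals mark TGACG or its reverse complement CGTCA, which include the cAMP response element TGACGTCA, and TATAAA in DUSP1, and CCAAT or its reverse complement ATTGG in the other two.
DUSP1: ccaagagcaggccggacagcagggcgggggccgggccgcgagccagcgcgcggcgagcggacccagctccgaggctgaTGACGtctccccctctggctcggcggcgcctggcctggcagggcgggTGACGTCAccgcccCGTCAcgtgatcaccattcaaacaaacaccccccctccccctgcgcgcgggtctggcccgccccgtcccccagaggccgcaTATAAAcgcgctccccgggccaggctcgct
DUSP10: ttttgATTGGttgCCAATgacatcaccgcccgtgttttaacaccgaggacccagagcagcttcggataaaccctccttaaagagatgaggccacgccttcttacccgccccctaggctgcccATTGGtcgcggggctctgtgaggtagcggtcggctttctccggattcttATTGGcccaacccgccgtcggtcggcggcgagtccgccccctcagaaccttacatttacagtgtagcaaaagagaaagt
DUSP6: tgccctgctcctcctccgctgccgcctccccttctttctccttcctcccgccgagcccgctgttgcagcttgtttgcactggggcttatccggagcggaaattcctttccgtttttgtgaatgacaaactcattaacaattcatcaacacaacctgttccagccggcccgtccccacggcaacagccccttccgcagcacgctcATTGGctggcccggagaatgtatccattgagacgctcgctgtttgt

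DUSP1 held TGACGTCA once, starting 125 bases before the start site, with 4 matches to TGACG in all, of which 2 lie within that element on opposite strands, and TATAAA starting 30 bases before the start site. The element TGACGTCA is known to bind CREB and ATF factors. It was found on either strand in 1.85% of the 35116 promoters of 300 bases in the table (250 before to 50 after the start site), TGACG in 24.6% and TATAAA in 11.5%. DUSP10 held 4 matches to CCAAT and DUSP6 held 1, a motif found in 34.6% of all promoters. The table held 11 promoters of 7 members. It held no promoter of DUSP4, DUSP5 or ETV5, so those genes were not searched for any motif. Of these 11 promoters, 5 held TGACG, 1 held the AP-1 motif TGANTCA (7.71% of all promoters), and 0 held the ETS motif CCGGAAGT (4.14%), the CArG box (1.29%) or the p53 half-site by its consensus (6.63%). A match describes letters in this window only, and no binding was measured here.

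Among the phosphatases that act in the nucleus, DUSP1 and DUSP4 had a like order of libraries and DUSP5 had another. DUSP1 (chromosome 5, 172768096 to 172771195, GRCh38) acts on ERK, JNK and p38 and is an immediate early gene. It had 380 and 188 CPM in untreated replicates 1 and 2 and 593 and 618 CPM in doxorubicin replicates 1 and 2. Both treated libraries were therefore above both untreated ones, the treated replicates were almost level, and untreated replicate 2 was the lowest. The mean was 284 ± 136 CPM (SD, n = 2) in untreated and 605 ± 17.7 CPM (SD, n = 2) in doxorubicin-treated cells. The difference, doxorubicin over untreated, was 0.93 ± 0.40 on the log2 scale (standard error, adjusted p 0.773 by edgeR). It was 0.52 (standard error 0.22, adjusted p 0.145 by edgeR) without untreated replicate 2 and 1.60 (standard error 0.24, adjusted p 3.7e-10 by edgeR) without untreated replicate 1.

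DUSP4 (chromosome 8, 29333064 to 29350684), which has a similar substrate range, had 141 and 121 CPM in untreated cells and 190 and 212 CPM in doxorubicin-treated cells. The groups did not overlap and the replicates of each lay close together, so that it was among the steadiest members. Its log2 fold change was 0.46 with all libraries (standard error 0.29, adjusted p 0.773 by edgeR), 0.37 without untreated replicate 2 and 0.65 without untreated replicate 1. It stayed under a log2 fold change of 1 in each of these fits.

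DUSP5 (chromosome 10, 110497907 to 110511533) is specific to ERK, which it inactivates and holds in the nucleus. Its levels were 23.8 CPM in untreated replicate 1 and 100.6 CPM in untreated replicate 2, and 60.1 and 89.3 CPM in doxorubicin replicates 1 and 2. The untreated libraries lay on either side of both treated ones, 4.23-fold apart. With all libraries the log2 fold change was 0.10 (standard error 0.69). Against untreated replicate 1 alone DUSP5 rose by 1.50 on the log2 scale (standard error 0.26, adjusted p 1.3e-06 by edgeR), from 863 counts to 2062 and 2463. Against untreated replicate 2 alone DUSP5 differed by -0.52 on the log2 scale (standard error 0.23, adjusted p 0.0435 by edgeR), smaller in size than the threshold of 1.

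DUSP6 (chromosome 12, 89347235 to 89352501), the cytoplasmic phosphatase specific to ERK, had 9.59 and 49.7 CPM in untreated replicates 1 and 2 and 15.6 and 16.0 CPM in doxorubicin replicates 1 and 2. The treated replicates were within 1.03-fold of each other, whereas the untreated replicates were 5.18-fold apart, the widest gap of the 10 members, with the treated pair between them. On the log2 scale DUSP6 differed by -1.06 with all libraries (standard error 0.78, adjusted p 0.773 by edgeR). It was 0.57 (standard error 0.29, adjusted p 0.254 by edgeR) without untreated replicate 2 and -1.74 (standard error 0.25, adjusted p 2.6e-11 by edgeR) without untreated replicate 1. The direction of DUSP6 therefore depended on which untreated library was used.

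DUSP10 (chromosome 1, 221701424 to 221742089), which prefers JNK and p38, had 6.62 and 18.6 CPM in untreated cells and 16.4 and 20.1 CPM in doxorubicin-treated cells. On plain CPM only untreated replicate 1 stood apart here, below the other 3 libraries, and untreated replicate 2 lay between the treated ones. On CPM scaled by TMM, untreated replicate 2 was the highest library, at 19.7, beside 16.1 and 18.6 in treated cells. Against untreated replicate 1 alone DUSP10 rose by 1.31 on the log2 scale (standard error 0.30, adjusted p 8.8e-04 by edgeR), from 240 counts to 563 and 555. With all libraries the log2 fold change was 0.38 (standard error 0.59), and without untreated replicate 1 it was -0.12 (standard error 0.27).

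The Sprouty proteins act between the receptor and RAF. SPRY2 (chromosome 13, 80335976 to 80341126) had 15.8 and 14.1 CPM in untreated cells and 18.1 and 21.5 CPM in doxorubicin-treated cells. The groups did not overlap, but the step between untreated replicate 1 and doxorubicin replicate 1 was 1.15-fold. The 95% Wilson intervals of these 2 levels, which cover counting error only, ran from 14.5 to 17.1 and from 16.7 to 19.6 CPM. Scaled by TMM, the 2 levels were 16.8 and 17.8 CPM. SPRY2 differed by 0.25 on the log2 scale (standard error 0.39) with all libraries and 0.18 (standard error 0.27) without untreated replicate 2. SPRY4 (chromosome 5, 142310427 to 142326455) had 19.8 and 46.0 CPM in untreated cells and 27.5 and 32.1 CPM in doxorubicin-treated cells. As in DUSP5 and DUSP6, the untreated libraries enclosed the treated ones. Its log2 fold change was -0.30 (standard error 0.50) with all libraries, 0.44 (standard error 0.26) without untreated replicate 2 and -0.71 (standard error 0.24) without untreated replicate 1.

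The Spred proteins bring the RAS inhibitor neurofibromin to the membrane. SPRED1 (chromosome 15, 38252836 to 38357249) had 17.5 and 8.97 CPM in untreated cells and 14.7 and 25.9 CPM in doxorubicin-treated cells. It had the widest gap between the treated replicates, 1.76-fold, and untreated replicate 1 lay between them. Its log2 fold change was 0.44 (standard error 0.53) with all libraries, 0.06 (standard error 0.27) without untreated replicate 2 and 1.08 (standard error 0.29, adjusted p 6.5e-04 by edgeR) without untreated replicate 1. SPRED2 (chromosome 2, 65310851 to 65432637) had 36.7 and 7.72 CPM in untreated cells and 40.1 and 44.4 CPM in doxorubicin-treated cells. Untreated replicate 2 was far below the other 3 libraries, with 223 counts (95% Wilson interval 6.77 to 8.80 CPM), and the other 3 lay within a narrow range. The log2 fold change of SPRED2 was accordingly 0.76 (standard error 0.73) with all libraries, 0.05 (standard error 0.25) without untreated replicate 2 and 2.36 (standard error 0.30, adjusted p 3.0e-14 by edgeR) without untreated replicate 1.

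ETV5 (chromosome 3, 186046314 to 186110318) had 75.6 and 54.4 CPM in untreated cells and 102 and 115 CPM in doxorubicin-treated cells. The groups did not overlap, and each replicate pair was within 1.39-fold. ETV5 differed by 0.57 on the log2 scale (standard error 0.34, adjusted p 0.773 by edgeR) with all libraries, 0.37 (standard error 0.23) without untreated replicate 2 and 0.90 (standard error 0.25, adjusted p 6.6e-04 by edgeR) without untreated replicate 1, the last below the threshold of 1. Of the genes that overlap ETV5 and SPRY4 in the annotation, those matched in the count tables had few counts, at most 4 for ETV5-AS1, at most 30 for DGKG and at most 19 for SPRY4-AS1 in any library, beside at least 1570 for ETV5 and at least 718 for SPRY4. The counting strand is not given in the sources used here.

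The gaps between replicates set how far these values can be read. In untreated cells the median gap of the 10 members was 1.12 on the log2 scale, from 0.17 for SPRY2 to 2.37 for DUSP6, and 6 members were at least 2-fold apart, as were 7883 of the 17325 genes with a count in every library. In doxorubicin-treated cells the median gap was 0.20, from 0.04 for DUSP6 to 0.81 for SPRED1. There 0 members were at least 2-fold apart, beside 1021 of the 17325 genes with a count in every library. The untreated gap was the larger one in 9 of the 10, the exception being SPRY2, and in 14242 of those 17325 genes.

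**Figure D3:**
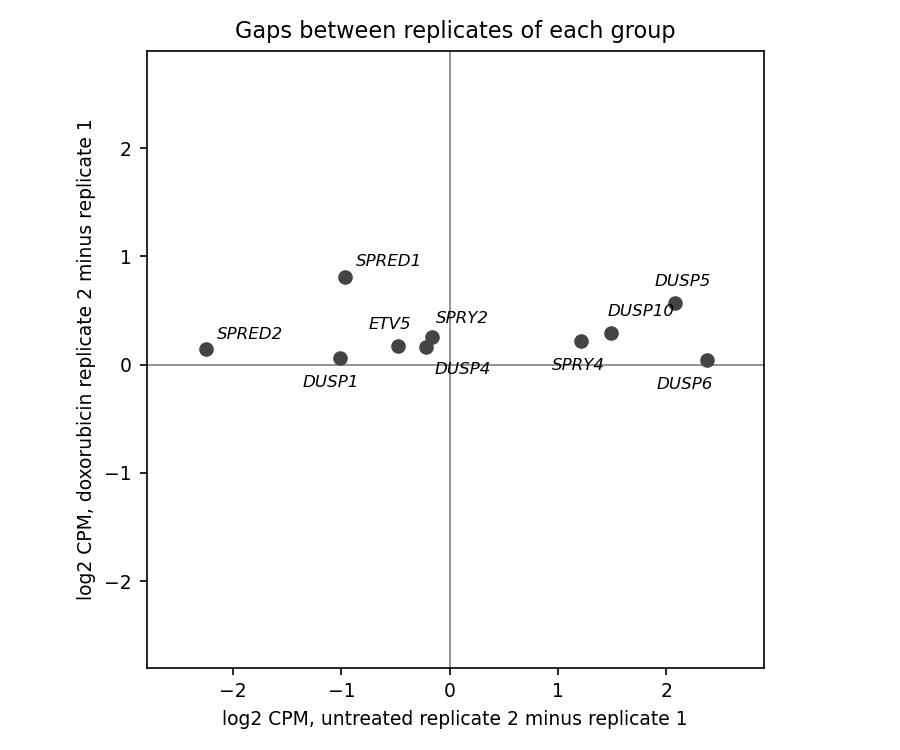
Each point is 1 of the 10 genes, placed by the log2 difference in CPM between the untreated replicates (horizontal) and between the doxorubicin replicates (vertical), on equal axes. The horizontal spread runs from -2.25 for SPRED2 to 2.37 for DUSP6, and the vertical spread from 0.04 to 0.81.

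DUSP6 was set against the 65 other tested genes of the group and of 6 lists of the MAPK pathway, by the root mean square distance of centred log2 CPM over the 4 libraries. The nearest genes were SPRY4 (distance 0.47), FOS (0.54) and SPRED3 (0.55). Untreated replicate 2 was the highest library in DUSP6 and in each of these 3 genes, as in 36.6% of all genes tested. The 3 genes were picked by their distance to DUSP6 over the same 4 libraries, so this likeness comes from the choice. FOS, an immediate early gene of the AP-1 family, had 7.39 and 81.6 CPM in untreated cells and 9.50 and 11.8 CPM in doxorubicin-treated cells. EGR1, another immediate early gene induced by ERK, had 7.64 and 90.6 CPM in untreated cells and 8.16 and 12.7 CPM in treated cells. Its fitted difference on the log2 scale was -2.40 ± 1.09 (standard error) with all libraries and 0.29 ± 0.30 (standard error) without untreated replicate 2. DUSP1, also an immediate early gene, was lowest in that library. The part of these genes in the levels of DUSP5, DUSP6 and SPRY4 was not tested.

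The rest of the pathway was read from the 6 lists. With all libraries 0 genes were called in any list, as over all genes (0%), and the median log2 fold changes of the lists lay between -0.08 and 0.47, against 0.01 over all genes. Of the 5 other MAPK phosphatases, 4 were tested and their median log2 fold change was 0.26, from -0.24 for DUSP7 to 0.73 for DUSP2, a nuclear phosphatase of ERK and p38. Without untreated replicate 2 all 5 were tested, the median was -0.32 and 4 of the 5 were below 0. The other Sprouty and Spred family inhibitors (3 of 4 tested) ranged from -0.14 for SPRED3 to 0.37 for IL17RD, which restrains FGF receptor signalling, with a median of -0.08. Without untreated replicate 2 all 4 were tested and above 0, with a median of 0.41. The 7 genes of RAS GTPase activating proteins and RAF inhibition ranged from -0.64 for PEBP1, which binds RAF, to 0.73 for RASAL2, with a median of 0.47 that was -0.13 without untreated replicate 2. The other ERK output genes (11 of 12 tested) ranged from -2.40 for EGR1 to 1.11 for IER3, a gene of low level at 0.358 and 0.381 CPM in untreated and 0.903 and 0.870 CPM in treated cells. Their median was 0.06, and 0.29 without untreated replicate 2. The 14 genes of the JNK and p38 cascade ranged from -0.78 for MAP2K6, a kinase that activates p38, to 1.02 for MAPK13, a p38 isoform, with a median of 0.40 that was 0.06 without untreated replicate 2. In 13 of these 14 genes untreated replicate 2 was the lowest library, against 45% of all genes tested.

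The 17 genes of the RAS to ERK cascade ranged from -1.87 for HRAS to 1.37 for SOS2, an exchange factor of RAS, with a median of 0.30 that was -0.02 without untreated replicate 2. Untreated replicate 2 was the lowest library in 14 of the 17, against 45% of all genes tested. HRAS had 49.5 and 48.2 CPM in untreated cells and 8.89 and 21.3 CPM in doxorubicin-treated cells. The untreated replicates were almost level and both treated libraries were below them. HRAS differed by -1.87 on the log2 scale with all libraries (standard error 0.50, adjusted p 0.773 by edgeR), by -1.88 without untreated replicate 2 (standard error 0.25) and by -1.78 without untreated replicate 1 (standard error 0.25), and it was called as lower in the last 2 fits. SOS2 had 10.8 and 5.44 CPM in untreated cells and 20.4 and 26.7 CPM in treated cells. Without untreated replicate 2 the lists held 3 calls among 58 genes tested (5.17%), a share near the 4.44% over all genes in that fit. Without untreated replicate 1 they held 27 calls, 24 higher and 3 lower, among 57 genes tested (47.4%, against 44.4% over all genes). The 3 calls without untreated replicate 2 were FOSL1, HRAS and MAP2K6. In that fit FOSL1, an AP-1 factor induced by ERK, rose by 1.07 on the log2 scale (standard error 0.25). It went from 41.1 to 94.0 and 97.6 CPM, beside 109 CPM in untreated replicate 2. HRAS and MAP2K6 fell in the same fit. MAP2K6 differed there by -1.71 on the log2 scale (standard error 0.26), from 35.7 to 11.8 and 12.5 CPM. Untreated replicate 2 had 1.42 CPM of MAP2K6, below both treated libraries. Without untreated replicate 1 the sign of MAP2K6 was therefore reversed, and it was called as higher. FOSL1 thus had the library order of DUSP5, lowest in untreated replicate 1 and highest in untreated replicate 2.

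**Figure D4:**
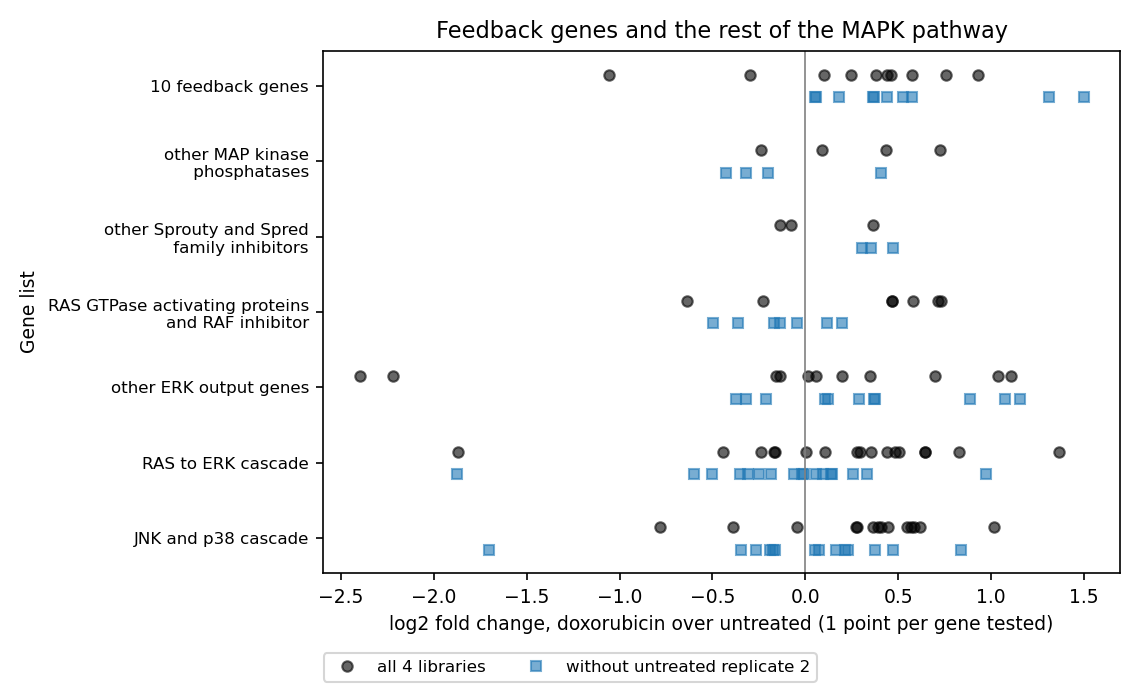
The log2 fold change of doxorubicin over untreated (horizontal) is shown for each gene of the 10 feedback genes and of the 6 other lists (vertical) that was tested with all libraries, with all 4 libraries and without untreated replicate 2. Without that library all 10 feedback genes lie above 0, from 0.05 to 1.50, and HRAS at -1.88 is the lowest gene of the RAS to ERK cascade in both fits.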

How the data were processed

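Samples of the RNA-seq (4 libraries, labelled HepG2) were grouped by their titles. According to the methods, the authors checked read quality in FastQC, trimmed adapters using Cutadapt, aligned to the genome by HISAT2 and counted per gene by HTSeq, although the column heading Geneid is the one that featureCounts writes. The deposited values are raw read counts per gene symbol, without normalization, on GENCODE release 31 per the file headers. Tool versions and the use of strand are not given in the sources used here.

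Counts were analysed with edgeR 4.0.16 in R 4.3.3 (filterByExpr, TMM, glmQLFit, glmQLFTest, prior count 0.125), where 17479 genes were tested. The standard error is the log2 fold change divided by the root of the F statistic. Calls needed a Benjamini-Hochberg adjusted p under 0.05 over all genes tested, and a size of 1 or more on the log2 scale. Alternatives were RLE factors, library size alone, no filter but 1 count, a minimum CPM of 1 in 2 or more libraries, DESeq2 1.42.0, the likelihood ratio and exact tests of edgeR, a replicate block, 2 as the prior count, and fits that lacked 1 library each. Tables and figures used Python 3.11.15, pandas 2.3.3 and SciPy 1.17.1. Positions and exon lengths came from GENCODE release 44 (GRCh38).

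The test was tried on simulated counts, drawn from a common mean per gene with the fitted spread. With all libraries it called 26 of 200 genes that were set 2 apart on the log2 scale, and 4 genes that were not. Most genes set apart by that size were thus missed in the simulation. No simulated library was shifted in the way that untreated replicate 2 stood apart in the data. The depth of 27572740 to 36272180 counts puts the level of 3 counts at a CPM of 0.0827 to 0.109, which covers counting error only.

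The members, lists and tests were chosen with earlier results of these data known. All 10 members are named. Of each other list, the genes with the highest and lowest log2 fold change over all libraries and any gene called there are named, and for DUSP6 the 3 nearest genes. FOSL1 was named for its call without untreated replicate 2, after its values were seen.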

Additional observations from a re-analysis of the deposited data

How the results depend on the processing

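The number of genes called moved from 0 to 89 with DESeq2, 64 with the likelihood ratio test, 46 with the exact test and 20 with the replicate block, and 0 members were called in each of these. The cause was not tested. It stayed at 0 with RLE factors, library size alone and both other filters, where 798, 800, 1543 and 591 genes had an unadjusted p under 0.05. With library size alone the median log2 fold change of the members was 0.57, while the median over all genes was 0.17 against 0.01 with TMM.

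Leaving out each library in turn, between 0 and 8697 genes and between 0 and 4 members were called, with 0 of both when a doxorubicin library was left out. The member median was between 0.27 and 0.54. Among the other lists the calls were between 0 and 3 (other MAPK phosphatases), 1 (other Sprouty and Spred family), 5 (GTPase activating proteins), 5 (other ERK output genes), 7 (RAS to ERK cascade) and 6 (JNK and p38 cascade). Log2 fold changes were between -0.52 and 1.50 for DUSP5, -1.74 and 0.57 for DUSP6, -0.12 and 1.31 for DUSP10, -0.71 and 0.44 for SPRY4, and 0.05 and 2.36 for SPRED2. Without doxorubicin replicate 2, DUSP5 was at -0.08. DUSP4, SPRY2 and ETV5 were between 0.37 and 0.65, 0.18 and 0.41, and 0.37 and 0.90. DUSP1 was between 0.52 and 1.60 and SPRED1 between 0.06 and 1.08.

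The replicate numbers are shared between the groups, and nothing in the labels ties same-numbered libraries. Their deviations from the means of their groups were correlated at 0.0219. With 2 libraries per group this rests on 1 difference in each group, so it cannot show whether they were paired. Under the replicate block the 20 calls included 0 members, and DUSP1 had a log2 fold change of 1.02. Chosen after seeing the data, TMM scaling left 5 members with both doxorubicin libraries above both untreated ones (21.3% of all genes). On plain CPM, 9 were above untreated replicate 1 alone (53.1%) and 6 above untreated replicate 2 alone (52.5%).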
